A study of Caenorhabditis elegans with 6 samples.

Results

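The genes described here encode the core of translation elongation and of cap recognition in *Caenorhabditis elegans*, together with the kinase that restrains elongation. They are the eEF2 kinase *efk-1*, its regulator *aak-2*, its substrate *eef-2*, the eEF1A genes *eef-1A.1* and *eef-1A.2*, and the eIF4E genes *ife-1*, *ife-2*, *ife-3*, *ife-4* and *ife-5*. They were chosen by name, as every row of the deposited counts whose WormBase symbol was one of these, which gave 10 of 46778 gene identifiers. Earlier results of these data were known when the names were chosen. RNA from whole, age-synchronized young adults was sequenced as single-end reads in 3 wild type libraries and 3 *vhl-1* mutant libraries, labelled as biological replicates 1, 2 and 3 of each genotype. All animals were kept under the same conditions without starvation, and no agent was given to either group. The strain list of the study names N2 as wild type and *ok161* as the *vhl-1* allele, a null mutation of the worm counterpart of human VHL, a tumor suppressor gene. The mutant is 1 strain, so effects of *vhl-1* and of its strain background cannot be told apart. In bulk RNA of whole animals, a smaller number of cells of a type and less RNA per cell cannot be told apart either.

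Translation elongation needs eEF1A, which brings aminoacyl-tRNA to the ribosome, and eEF2, which moves the ribosome along the message by a codon at a time. The eEF2 kinase phosphorylates eEF2 and thereby slows elongation, and the AMP-activated kinase AMPK, whose catalytic subunit is encoded by *aak-2*, promotes this step when energy is short. Initiation on most messages starts with eIF4E, which binds the cap at the 5′ end, and *C. elegans* has several eIF4E isoforms that differ in tissue and in the type of cap they bind. VHL marks the hypoxia-inducible factor HIF for degradation, so that loss of *vhl-1* stabilizes HIF-1, and *efk-1* has been listed among the worm genes that depend on HIF-1 in low oxygen. The libraries allow the message of the kinase to be compared between genotypes with those of its regulator, its substrate and the other factors.

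Each library held between 52462303 and 82910026 reads on genes, so that 1 read was worth between 0.0121 and 0.0191 CPM, the number of reads per 1000000 reads of its library. The CPM values given from here on were also scaled by the TMM method of edgeR. The mutated gene had between 6.37 and 7.49 CPM in wild type animals and between 0.016 and 0.083 CPM in *vhl-1* mutants (log2 fold change -7.14, edgeR adjusted p = 0.00066). Defining markers of 8 tissues and germ cell types, 46 genes in all, were read in every library, though not at equal levels. The 4 intestine markers summed to between 3990 and 9604 CPM in wild type animals and between 1966 and 4718 CPM in *vhl-1* mutants. The summed ranges of the genotypes overlapped for each of the 8 lists, and no marker was called. Wild type 1 and *vhl-1* 2 lay at the opposite ends of the first principal component, which held 52.03% of the variance over genes. All 10 genes passed the filter on low counts, and the lowest of their counts was 539 reads in a library. Over all 16596 genes tested, edgeR's quasi-likelihood test with Benjamini-Hochberg adjustment called 1.25% at an adjusted p under 0.05. The share called higher in *vhl-1* mutants was 0.874% and the share called lower was 0.374%.

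Of the 10 genes, *efk-1* rose in *vhl-1* mutants and the 9 others did not pass the threshold. The kinase message was 1.81-fold as high in *vhl-1* mutants as in wild type animals. The fitted folds of the 9 others lay between 0.893 and 1.12, with edgeR adjusted p between 0.97 and 1.00. The median log2 fold change of these 9 was -0.021, against 0.0059 over all genes tested. DESeq2, which called 3.45% of the genes it tested, also called *efk-1* and none of the other 9.

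**Figure D1:**
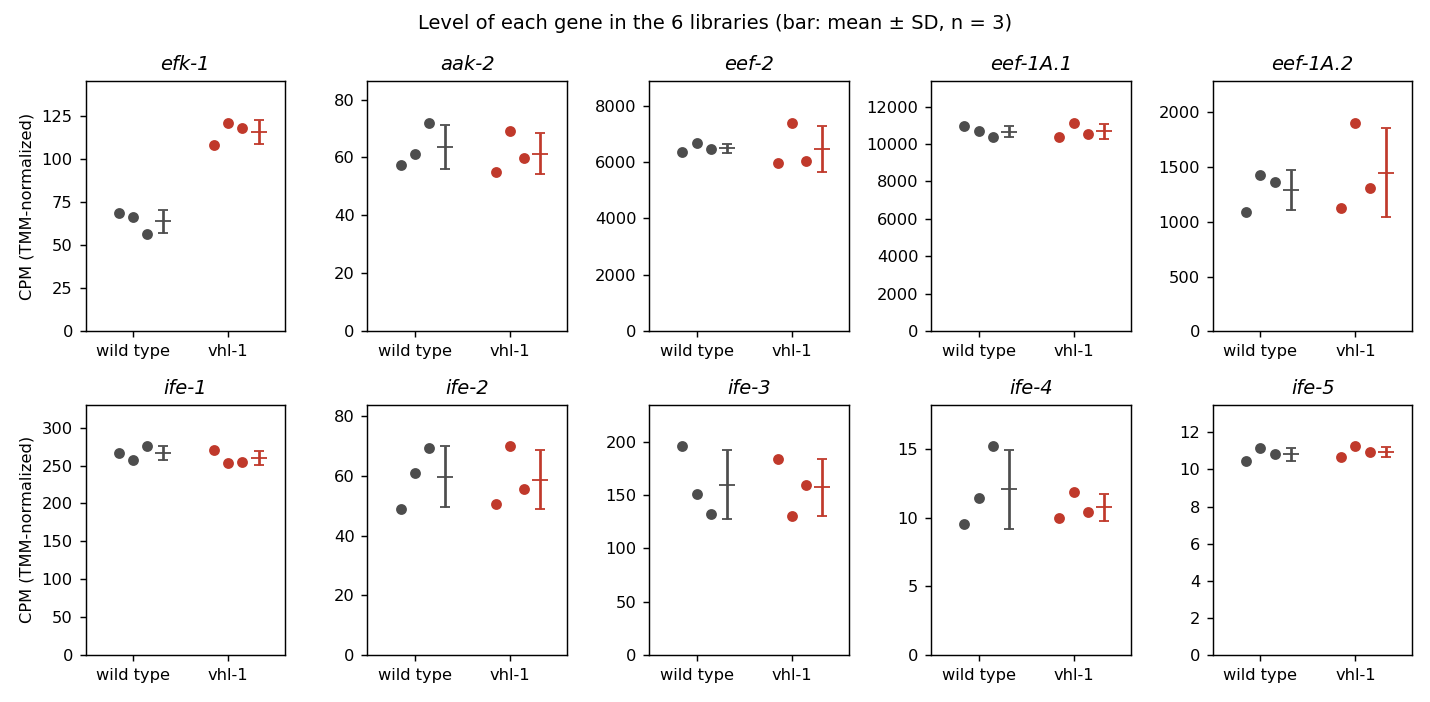
TMM-normalized CPM (vertical axis, from 0) of each of the 10 genes in the 3 wild type libraries (grey) and the 3 *vhl-1* libraries (red), in the order of their replicate numbers, with the mean ± SD beside them. The *efk-1* points of *vhl-1* mutants lie between 108 and 121 CPM, above all wild type points, while the points of both genotypes overlap for each of the 9 other genes.

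*efk-1* (WBGene00001160) lies on the minus strand of chromosome III of WBcel235 from 6164906 to 6168547, with 6 blocks of exons of 2707 bases in total, and its longest protein has 768 amino acids. No other annotated gene overlaps its exons. It had 68.9, 66.4 and 56.4 CPM in wild type libraries 1, 2 and 3. In *vhl-1* libraries 1, 2 and 3 it had 108, 121 and 118 CPM. The groups did not overlap, with the mutants higher, which was the case for 6.97% of all genes tested, and the lowest *vhl-1* library was 1.57 times the highest wild type library. The wild type mean was 63.9 ± 6.63 CPM and the mutant mean 115.7 ± 6.85 CPM (SD, n = 3 each). Its log2 fold change was 0.86 with a standard error of 0.10 and a 95% interval from 0.61 to 1.11 (edgeR adjusted p = 0.019). By its unadjusted p, *efk-1* ranked 90 among all genes tested, and by its fold its place among the genes called higher was 130. DESeq2 gave a log2 fold change of 0.85 (adjusted p = 5.78e-07).

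The size of the *efk-1* change hardly moved when a library was left out, with log2 fold changes between 0.77 and 0.91, but its call did. With the fewer libraries, the edgeR adjusted p was 0.10 without wild type 2, 0.0502 without *vhl-1* 1, 0.066 without *vhl-1* 2 and 0.14 without *vhl-1* 3, which in each case missed the threshold. It was 0.035 without wild type 1 and 0.048 without wild type 3. These fits also called fewer genes in all, between 49 and 161 in place of 207. Without wild type 1 and *vhl-1* 2 together, the log2 fold change was 0.88 (edgeR adjusted p = 0.025).

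**Figure D2:**
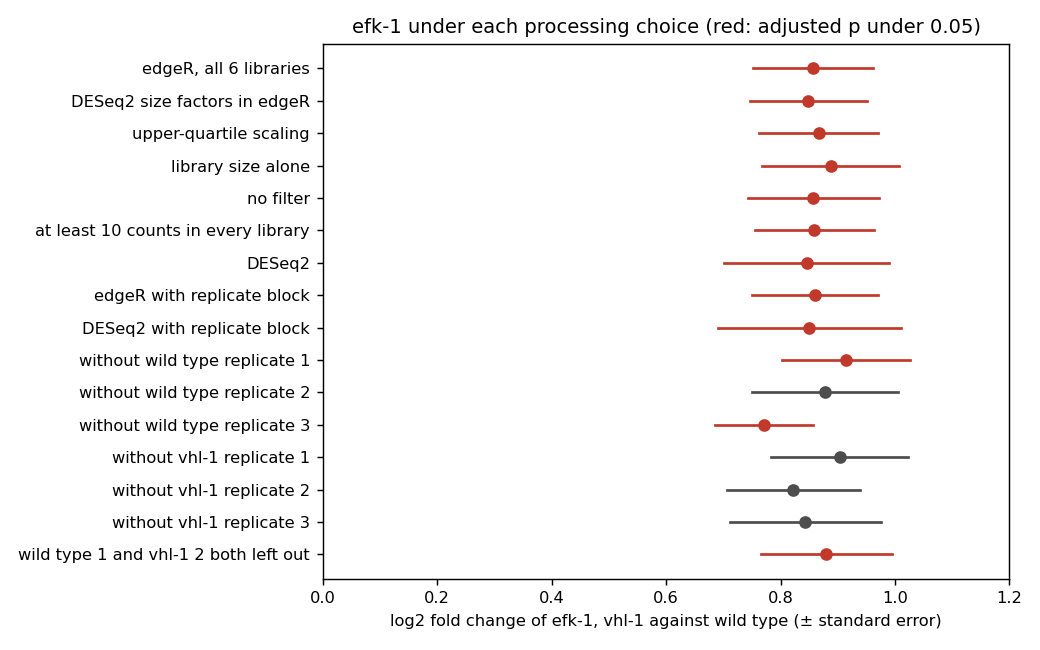
Log2 fold change of *efk-1* between *vhl-1* mutants and wild type animals (horizontal axis) ± standard error under each normalization, filter, test and set of libraries, with adjusted p under 0.05 in red. All 16 values lie between 0.77 and 0.91, and the 4 in grey are fits that left out 1 library.

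*aak-2* (WBGene00020142), the AMPK catalytic subunit, lies on the plus strand of chromosome X from 16796087 to 16803398, with 10 blocks of exons. It had 57.3, 61.2 and 72.01 CPM in wild type libraries 1, 2 and 3, and 55.2, 69.0 and 59.9 CPM in the *vhl-1* libraries. The groups overlapped across most of their range. Between genotypes the log2 fold change was -0.050 (standard error 0.13, 95% interval -0.35 to 0.25, edgeR adjusted p = 1.00), so that a fold below 0.783 or above 1.19 lay outside the interval. Its exons share 78 bases with *mec-4* on the opposite strand, which had at most 223 reads in a library.

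Set against its regulator within each library, where the scaling of the library cancels, *efk-1* had 1203, 1085 and 783 reads per 1000 reads of *aak-2* in wild type animals. The corresponding values in *vhl-1* libraries 1, 2 and 3 were 1959, 1756 and 1972. All *vhl-1* libraries were thus above all wild type libraries, and the mean log2 ratio differed by 0.91 (two-sided exact permutation test, p = 0.1, the smallest p that 3 against 3 libraries allow). Without 1 library this difference stayed between 0.73 and 1.04. The same *efk-1* counts enter this ratio, so it is no separate result from the rise of *efk-1*.

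*eef-2* (WBGene00001167), the substrate of the kinase, lies on the plus strand of chromosome I from 9163531 to 9166952, with 7 blocks of exons and a longest protein of 852 amino acids. Its wild type libraries had 6341, 6666 and 6454 CPM. The *vhl-1* libraries had 5954, 7396 and 6050 CPM, so that the highest and the lowest library were both mutant. The spread was 12.5% of the mean in *vhl-1* mutants and 2.55% in wild type animals. The fitted log2 fold change was -0.0045 (standard error 0.11, 95% interval -0.27 to 0.26, edgeR adjusted p = 1.00).

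The ratio of kinase to substrate message was higher in every *vhl-1* library than in every wild type library. Per 1000 reads of *eef-2* there were 10.87, 9.97 and 8.74 reads of *efk-1* in wild type libraries 1, 2 and 3. In *vhl-1* libraries 1, 2 and 3 there were 18.1, 16.4 and 19.5. The mean log2 ratio differed by 0.87 (two-sided exact permutation test, p = 0.1, the smallest p possible here). This difference lay between 0.79 and 0.95 with 1 library left out. As the ratio uses the same *efk-1* counts, it is no separate result from the rise of *efk-1*. Per kilobase of exon, the level of *eef-2* was 98.1 times that of *efk-1* in wild type animals and 54.01 times in *vhl-1* mutants. These values concern messages, and neither the phosphorylation of eEF2 nor the rate of elongation was measured.

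**Figure D3:**
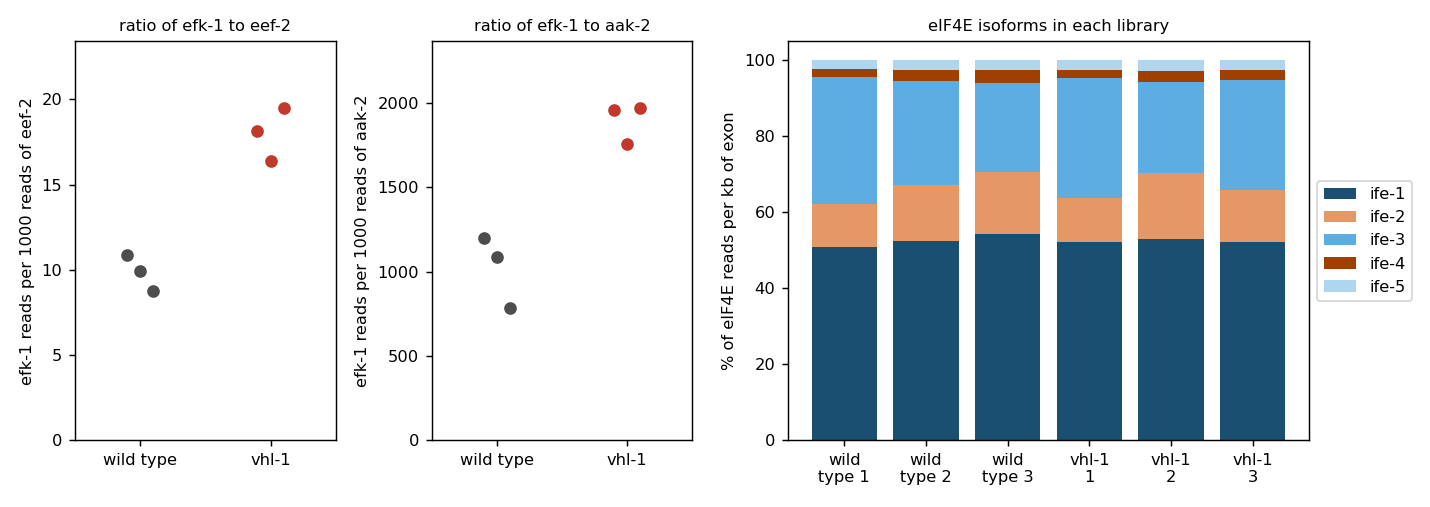
Left and middle, reads of *efk-1* per 1000 reads of *eef-2* or of *aak-2* in each library (vertical axis from 0, wild type grey, *vhl-1* red). Right, share of each eIF4E isoform in the reads per kilobase of exon of all 5 isoforms, as stacked bars for each library. Both ratios are higher in all *vhl-1* libraries, from 16.4 for *eef-2* and from 1756 for *aak-2*, while *ife-1* holds between 51.0% and 54.3% of the eIF4E reads per kilobase in all 6 libraries.

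eEF1A is encoded by a pair of genes on different chromosomes, both with a protein of 463 amino acids. *eef-1A.1* (WBGene00001168) lies on the minus strand of chromosome III from 6970026 to 6971712, and *eef-1A.2* (WBGene00001169) on the plus strand of chromosome X from 7823654 to 7825769. *eef-1A.1* was the most abundant of the 10 genes and among the steadiest. It had 10956, 10681 and 10371 CPM in the wild type libraries and 10380, 11138 and 10541 CPM in the *vhl-1* libraries. The ranges overlapped, and the spread was 2.74% of the mean in wild type animals and 3.74% in *vhl-1* mutants. The change of *eef-1A.1* on the log2 scale was 0.0023 (standard error 0.082, 95% interval -0.19 to 0.20, edgeR adjusted p = 1.00).

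*eef-1A.2* varied more. Its wild type libraries had 1086, 1431 and 1362 CPM, and its *vhl-1* libraries had 1126, 1906 and 1313 CPM. *vhl-1* 2 stood above the 5 other libraries, which lay between 1086 and 1431 CPM. For *eef-1A.2* the log2 fold change was 0.16 (standard error 0.21, 95% interval -0.35 to 0.68, edgeR adjusted p = 0.98). It was -0.084 without *vhl-1* 2, 0.32 without *vhl-1* 1, 0.052 without wild type 1 and -0.20 without wild type 1 and *vhl-1* 2 together. As a share of the eEF1A reads per kilobase, *eef-1A.2* held 8.86% ± 1.30 (SD, n = 3) in wild type animals and 9.71% ± 2.11 (SD, n = 3) in *vhl-1* mutants (two-sided exact permutation test, p = 0.6). Reads of 50 bases need not separate paralogs of the same protein length, and how the counting treated reads that map to both genes is not given in the sources used here. The reads of both genes added together changed by 0.021 on the log2 scale (edgeR adjusted p = 1.00, standard error 0.089).

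The eIF4E isoforms fall into groups by tissue and by cap. In worms *ife-1*, *ife-3* and *ife-5* are known from the germline, where *ife-1* serves late spermatogenesis and its protein associates with P granules, while *ife-2* and *ife-4* are known from somatic tissues. The IFE-1, IFE-2 and IFE-5 proteins bind both the usual monomethylated cap and the trimethylated cap that trans-splicing gives to many worm messages, and IFE-3 and IFE-4 bind the monomethylated cap. None of the 5 genes passed the threshold, the groups overlapped for each of them, and the largest of their differences was that of *ife-4*.

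*ife-1* (WBGene00002059), on the plus strand of chromosome III from 13343417 to 13344618, was the most abundant isoform. It had 267, 258 and 275 CPM in the wild type libraries and 271, 254 and 255 CPM in the *vhl-1* libraries. The log2 fold change of *ife-1* was -0.036 (standard error 0.077, 95% interval -0.22 to 0.15, edgeR adjusted p = 1.00), which leaves folds below 0.859 and above 1.11 outside the interval. Of its exon bases, 24.7% are shared with *dro-1* on the same strand, so reads from those bases need not have been assigned to *ife-1*. *dro-1* itself had between 860 and 2149 reads in a library, against between 13713 and 22832 for *ife-1*.

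*ife-3* (WBGene00002061), the isoform closest to the main mammalian eIF4E, lies on the minus strand of chromosome V from 6584 to 7828. Its values were 195.7, 151 and 133 CPM in wild type libraries and 183, 130 and 159 CPM in *vhl-1* libraries. The spread within each genotype, 20.3% and 16.99% of the mean, was much wider than the difference between them, a log2 fold change of -0.021 (standard error 0.18, 95% interval -0.46 to 0.42, edgeR adjusted p = 1.00). The libraries with the highest *ife-3*, wild type 1 and *vhl-1* 1, were also those with the highest summed level of 8 oocyte markers, at 1669 and 1471 CPM. *vhl-1* 2 had the lowest of both, with 421 CPM for the oocyte markers. This order was not particular to oocytes. The summed germline, sperm and intestine markers were also highest in wild type 1 and *vhl-1* 1 and lowest in *vhl-1* 2. Of the other isoforms known from the germline, *ife-5* was highest in *vhl-1* 2 and *ife-1* in wild type 3. Over all libraries the oocyte markers ranged from 540.4 to 1669 CPM in wild type animals and from 421 to 1471 CPM in *vhl-1* mutants, all 8 were read in every library, and none of them was called between genotypes. The part of oocyte, other germline or intestine content in the values of *ife-3* was not tested. With wild type 1 and *vhl-1* 2 both left out, its log2 fold change was 0.27 (edgeR adjusted p = 0.27).

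*ife-5* (WBGene00002063), on the plus strand of chromosome II from 12280660 to 12284139, was among the least abundant and the steadiest of the genes. It had 10.48, 11.14 and 10.82 CPM in wild type libraries and 10.68, 11.24 and 10.94 CPM in *vhl-1* libraries. The spread was 3.05% of the mean in wild type animals and 2.56% in *vhl-1* mutants. On the log2 scale the change was 0.019 (standard error 0.11, 95% interval -0.25 to 0.29, edgeR adjusted p = 1.00).

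*ife-2* (WBGene00002060), whose loss is known to extend lifespan in worms, lies on the minus strand of chromosome X from 381385 to 382709. It had 49.0, 61.0 and 69.3 CPM in wild type libraries and 50.8, 69.9 and 55.7 CPM in *vhl-1* libraries. Within both genotypes the lowest value came from replicate 1, where *ife-3* was highest. On the log2 scale the change was -0.024 (standard error 0.17, 95% interval -0.43 to 0.38, edgeR adjusted p = 1.00), and it was -0.29 without wild type 1 and *vhl-1* 2 together (edgeR adjusted p = 0.21).

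*ife-4* (WBGene00002062), the isoform known from neurons and muscle, lies on the plus strand of chromosome X from 1104212 to 1106251. It had 9.54, 11.43 and 15.19 CPM in wild type libraries and 10.01, 11.88 and 10.39 CPM in *vhl-1* libraries. Its log2 fold change of -0.16 (standard error 0.20, 95% interval -0.63 to 0.31, edgeR adjusted p = 0.97) moved with the libraries used. It was 0.033 without wild type 3, the highest library, -0.31 without wild type 1, the lowest, and -0.38 without wild type 1 and *vhl-1* 2 together, and no fit called it (edgeR adjusted p = 0.28 in the last of these). The interval for *ife-4* does not reach a fold below 0.645 or above 1.24.

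Taken per kilobase of exon, *ife-1* made up 52.6% ± 1.67 (SD, n = 3) of the eIF4E reads in wild type animals and 52.5% ± 0.375 (SD, n = 3) in *vhl-1* mutants. All exon bases of *ife-1* were counted in its length, so reads left unassigned on those shared with *dro-1* would lower its share. *ife-3* followed with 28.0% ± 5.03 and 28.2% ± 3.75, and *ife-2* with 14.1% ± 2.64 and 14.2% ± 2.90 (SD, n = 3 each). *ife-4* and *ife-5* each held at most 3.51% in any library. The mean shares in *vhl-1* mutants minus those in wild type animals lay between -0.241 percentage points for *ife-4* and 0.203 for *ife-3*, and for each of the 5 isoforms the difference was smaller than the SD within either genotype. Two-sided exact permutation tests gave p between 0.6 and 1, in a design where no share could have passed, since the smallest p possible is 0.1. The isoforms known from the germline, *ife-1*, *ife-3* and *ife-5*, together held 86.7%, 82.5% and 80.2% in wild type libraries. In *vhl-1* libraries they held 86.1%, 79.7% and 83.9%, a difference in means of 0.13 percentage points (two-sided exact permutation test, p = 1). Among them *ife-3* varied most, from 23.3% to 33.3%, and the values are of whole animals. With *ife-1* left out of both sums, the difference was 0.55 percentage points (two-sided exact permutation test, p = 0.9). The reads of all 5 isoforms added together changed by -0.032 on the log2 scale (edgeR adjusted p = 1.00, standard error 0.083).

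**Figure D4:**
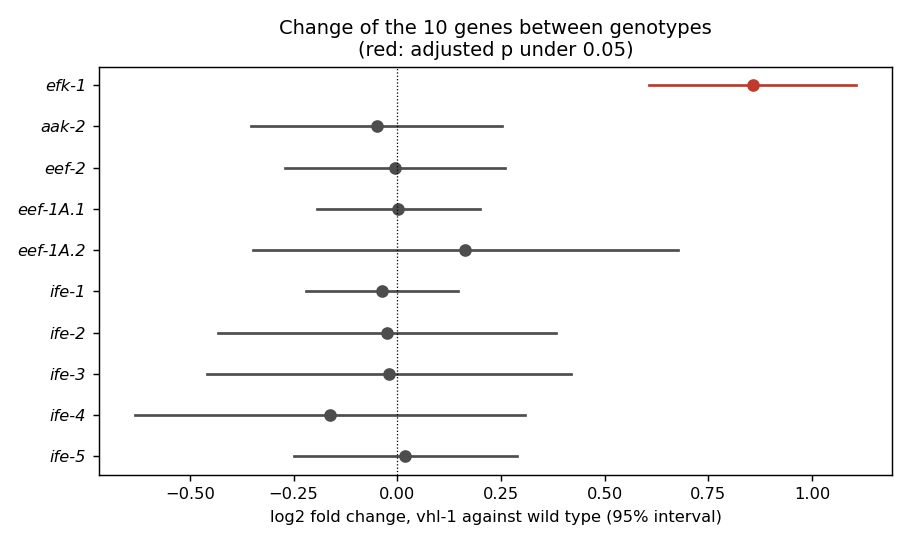
Log2 fold change between *vhl-1* mutants and wild type animals (horizontal axis) of the 10 genes, as points with 95% intervals from the edgeR fit. The interval of *efk-1* runs from 0.61 to 1.11, and those of the 9 other genes include 0 and lie between -0.63 and 0.68.

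Compared as levels per kilobase of exon, the genes spanned a wide range. In wild type animals the order was *eef-1A.1* with 6942 ± 190.2, *eef-2* with 2317 ± 58.96, *eef-1A.2* with 674 ± 95.4, *ife-1* with 268 ± 8.71, *ife-3* with 143 ± 29.0 and *ife-2* with 71.6 ± 12.2 CPM per kilobase (SD, n = 3 each). After these came *aak-2* with 26.1 ± 3.14 and *efk-1* with 23.6 ± 2.45, then *ife-4* with 14.2 ± 3.38 and *ife-5* with 12.7 ± 0.388 CPM per kilobase (SD, n = 3 each). The neighbours *aak-2* and *efk-1* did not differ in wild type animals beyond their spread, and neither did *ife-4* and *ife-5*. In *vhl-1* mutants *efk-1* had 42.8 ± 2.53 and *aak-2* had 25.23 ± 2.90 CPM per kilobase (SD, n = 3 each), so *efk-1* stood above *aak-2* in every mutant library. The places of the 8 other genes differed only for the pair *ife-4* and *ife-5*, with 12.7 ± 1.17 and 12.9 ± 0.330 CPM per kilobase in the mutants. *eef-1A.1* had 3.00 times the level of *eef-2* per kilobase in wild type animals and 3.01 times in *vhl-1* mutants.

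The other genes of the pathway were taken from a list of 62 genes in 7 groups, of which 61 were matched to an identifier and tested. None of these 61 passed the threshold with edgeR's quasi-likelihood test, which called 1.25% of all genes tested. DESeq2, which called 3.45% of the genes it tested, called 1 of them. The lowest edgeR adjusted p among the 61 was 0.11. The median log2 fold change of the 61 genes was -0.028, against 0.0059 over all genes. The groups of libraries did not overlap for 11 of the 61, or 18.0%, where the share over all genes was 14.4%.

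Of the other elongation factors, which comprise the exchange factor subunits of eEF1A and the eIF5A genes *iff-1* and *iff-2*, 5 of 5 were tested and their log2 fold changes lay between -0.058 for *iff-1* and 0.087 for *eef-1B.1*. The eIF3 complex, which holds the small ribosomal subunit during initiation, had 11 subunits tested, with values between -0.093 and 0.019. Within the 24 initiation factors tested in that group, eIF3 included, the lowest value was that of *iffb-1*, the eIF5B gene, at -0.094 (edgeR adjusted p = 0.89), and the highest that of *eif-1* at 0.075 (edgeR adjusted p = 0.95). Of 3 termination factors, all had values below 0 and *erfa-1*, which recognizes stop codons, had the lowest at -0.13 (edgeR adjusted p = 0.81).

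*mnk-1*, the kinase that phosphorylates eIF4E in animals, had the highest value on the list. It had 159 ± 2.13 CPM in wild type and 206 ± 11.903 CPM in mutant libraries (SD, n = 3 each). The difference was 0.37 on the log2 scale (standard error 0.079), with an edgeR adjusted p of 0.11 and a DESeq2 adjusted p of 0.030. It was the 1 gene of the list called by DESeq2, and that call was lost in DESeq2 with a term for the replicate number. Its group, the partners of eIF4E, ranged down to -0.099 for *larp-1*. *pek-1*, the eIF2 kinase of the endoplasmic reticulum, had a value of 0.35 (standard error 0.11, edgeR adjusted p = 0.32), while *gcn-1*, the partner of the eIF2 kinase GCN-2, had -0.083.

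Among 12 genes of AMPK and its upstream kinase, the log2 fold changes ran from -0.29 for *aakg-3* (edgeR adjusted p = 0.69) to 0.29 for *aakg-1* (edgeR adjusted p = 0.32), both gamma subunits of the complex. *aak-1*, the other catalytic subunit, had -0.20 (standard error 0.15, edgeR adjusted p = 0.88). The 7 genes of the TOR complex and S6 kinase lay between -0.17 for *ragc-1* (edgeR adjusted p = 0.59) and 0.096 for *daf-15* (edgeR adjusted p = 0.90). *rsks-1*, the S6 kinase, which restrains the eEF2 kinase in mammals, had -0.078 (edgeR adjusted p = 0.92).

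**Figure D5:**
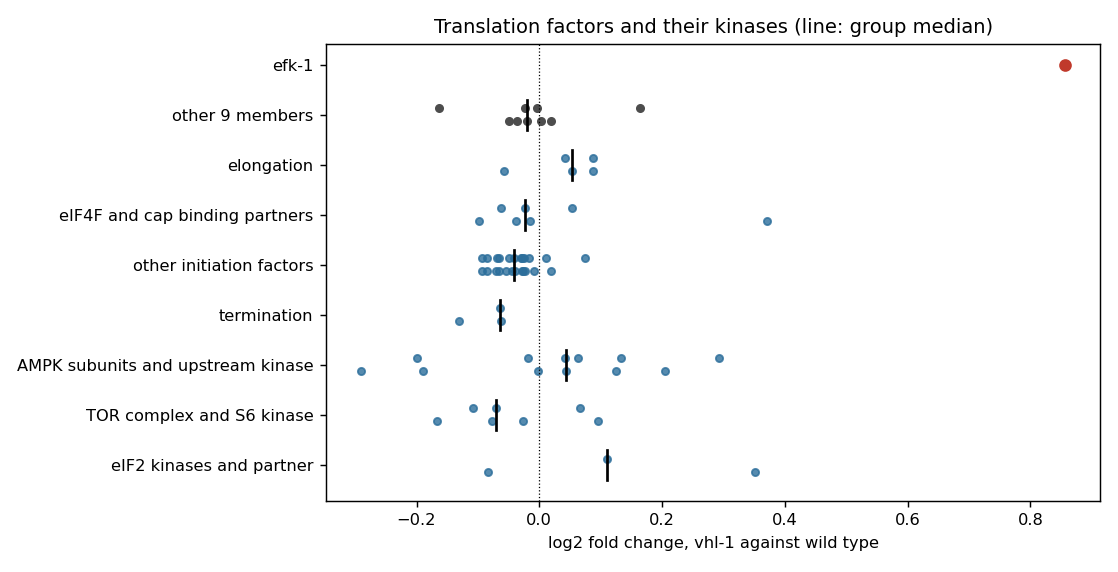
Log2 fold change between *vhl-1* mutants and wild type animals (horizontal axis) of *efk-1*, the 9 other genes and the 61 listed translation genes by group, 1 point per gene, with a line at the median of each group. *efk-1* lies at 0.86, and the listed genes lie between -0.29 and 0.37.

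The genes most like *efk-1* in their pattern over the 6 libraries were found by the root mean square difference in log2 CPM after centring each gene on its mean. They were *M02D8.7*, *F33H2.2*, *Y10G11A.1*, *T25B9.11* and *K10D11.6*, with differences between 0.086 and 0.10, where the median gene had 0.49. As they were picked on the same libraries, a rise close to that of *efk-1* follows from the choice and is no separate result. *F33H2.2* rose from 49.8 ± 4.53 to 86.7 ± 3.897 CPM (SD, n = 3 each), or 0.80 on the log2 scale (edgeR adjusted p = 0.018). *Y10G11A.1* rose from 47.04 ± 4.97 to 79.8 ± 1.73 CPM (SD, n = 3 each), or 0.76 on the log2 scale (edgeR adjusted p = 0.023). The 3 others had log2 fold changes of 0.91, 0.89 and 0.83 and did not pass the threshold, with edgeR adjusted p of 0.29, 0.17 and 0.082, and *M02D8.7* and *T25B9.11* were at or under 1.03 CPM on average in both genotypes.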

How the data were processed

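Per the labels and the study's methods, the authors trimmed single-end reads of 50 bases with Trim Galore 0.4.3.1, aligned them with STAR 2.6.0b and deposited raw counts per gene from featureCounts 1.6.3, without normalization. The genome build, annotation release, strand setting and handling of multi-mapping reads are not given in the sources used here. Each set of counts ended with 1 blank row holding 0 reads, which was left out. For symbols, positions and exon lengths, Ensembl release 115 of the WBcel235 annotation was used, which held 46603 of the 46778 identifiers.

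Counts were tested with edgeR 4.0.16 in R 4.3.3 (filterByExpr, TMM scaling, quasi-likelihood test on genotype, Benjamini-Hochberg adjustment over 16596 genes, threshold 0.05). The study's methods name DESeq2, and DESeq2 1.42.0 was an alternative here. The standard error is the log2 fold change divided by the square root of F, and intervals use the same fit. CPM values are TMM-normalized. With 3 against 3 libraries, ratios and shares were compared by exact permutation over 20 arrangements. The intervals are for the mean difference between genotypes and take in only the variation between these libraries. No replicates agreed within sampling noise (chi-square per gene of at least 43.3).

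The members and lists were chosen with earlier results of these data known. The text names every member, the highest rise and fall in each group of the pathway list, any listed gene past the threshold, and the 5 genes most like *efk-1* (0.01 CPM added before the logarithm). *rsks-1* and *aak-1* were added for their roles after their values were seen. *eif-3.M* had no match in the annotation. Alternatives were other scalings and filters, DESeq2, a replicate term, a threshold of 0.01 and each library left out. Leaving out wild type 1 and *vhl-1* 2 together was chosen after seeing the data. Sequences were not used here.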

Additional observations from a re-analysis of the deposited data

How the results depend on the processing

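The log2 fold change of *efk-1* was positive in all 15 alternatives. In the 9 that did not leave out just 1 library, its adjusted p lay between 5.78e-07 (DESeq2) and 0.026 (edgeR with the replicate block). These 9 include the fit without wild type 1 and *vhl-1* 2 together. With 1 library left out the log2 fold change ranged from 0.77 to 0.91, and *efk-1* passed in 2 of 6 fits, those without wild type 1 and wild type 3. The number of the 10 genes called ranged from 0 to 1 in those fits and was 0 at an adjusted p under 0.01. Over all genes, the 207 calls became 653 with DESeq2 (51.6% higher, against 70.0% with edgeR), 65 at an adjusted p under 0.01, 385 without wild type 1 and *vhl-1* 2 together (48.6% higher) and 49 to 161 with 1 library left out. The cause was not tested. Of the pathway list, DESeq2 called 1 gene and the other alternatives 0.

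No fit called any of the 9 other genes (lowest adjusted p 0.21), whose values near 0 changed sign in 27 of 144 fits, the reported ones included. *eef-1A.1* was -0.0057 with DESeq2 size factors, -0.0078 with DESeq2 and -0.0087 without both libraries. *eef-2* was 0.0045 with upper-quartile scaling and 0.029 with library size alone, where *ife-2* was 0.013, *ife-3* 0.011 and summed eIF4E 0.0032. Without both libraries *aak-2* was -0.21, *eef-2* -0.13, *ife-1* -0.019, *ife-2* -0.29, *ife-4* -0.38, *eef-1A.2* -0.20, *ife-3* 0.27, *ife-5* -0.022, summed eEF1A -0.029 and summed eIF4E 0.031. With 1 library left out the ranges were -0.14 to 0.046 for *aak-2*, -0.11 to 0.051 for *eef-2*, -0.028 to 0.022 for *eef-1A.1*, -0.084 to 0.32 for *eef-1A.2*, -0.17 to 0.091 for *ife-2*, -0.15 to 0.15 for *ife-3*, -0.31 to 0.033 for *ife-4*, -0.0031 to 0.036 for *ife-5*, -0.034 to 0.057 for summed eEF1A, -0.073 to 0.00056 for summed eIF4E and -1.34 to 1.92 percentage points for the share of germline isoforms.

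The correlation between the deviations of libraries with the same replicate number was 0.59, 0.51 and -0.021 for numbers 1, 2 and 3. Between libraries with different numbers it lay between -0.57 and 0.26. Numbers 1 and 2 thus had the highest values and number 3 did not, so the numbers were not taken to pair all libraries. Whether some were paired was not tested. With the replicate block edgeR called 354 genes and DESeq2 909, *efk-1* among them in both, with log2 fold changes of 0.86 and 0.85, and *eef-1A.1* was -0.0078 with DESeq2 and the block. No other gene of the 10 was called with the block.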
